A study of Mus musculus with 9 samples.

Results

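The 37 genes described here encode subunits of the mouse proteasome, the assembly chaperones of its regulatory particle and 1 inhibitor. They were chosen by symbol, as rows of the deposited count table that start with Psma, Psmb, Psmc, Psmd or Psmf and go on with a number. Of 24296 rows, 43 matched these letters. The pseudogenes Psmb5-ps, Psmb6-ps and Psmb6-ps2, the unrelated Psmc3ip, and the immune subunits Psmb8 and Psmb9 were left out. The members were 8 genes of the core alpha ring, 8 of the core beta ring, 9 of the regulatory base, 8 of the regulatory lid, 3 regulatory chaperones and the inhibitor. The left knee joint was taken whole from mice of strain 129/Sve, all female and 8 weeks old, and profiled 1 week after an injection into that knee by Seq-Well, a nanowell method for single-cell RNA. The 5 sick mice had antigen-induced arthritis (AIA), triggered with methylated bovine serum albumin (mBSA) in animals sensitized to it beforehand. The 4 healthy mice received phosphate-buffered saline (PBS) in the same joint, and whether they too were sensitized is not given in the sources used here. Each replicate was a separate mouse with its own library, and the labels give no batch.

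The proteasome degrades proteins tagged with ubiquitin. Its core particle is a barrel of stacked rings in which the alpha subunits gate the entrance and Psmb5, Psmb6 and Psmb7 of the beta ring carry the proteolytic sites. The regulatory particle sits on the core: its base holds the ATPases Psmc1 to Psmc6, which unfold substrates, and its lid removes ubiquitin through Psmd14. In immune cells and under interferon, Psmb8, Psmb9 and Psmb10 can take the places of Psmb5, Psmb6 and Psmb7, and the Psme1 and Psme2 activator can cap the core. Transcription of proteasome genes is raised by Nfe2l1, and also by Nfe2l2, through antioxidant response elements in many of their promoters.

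Promoters are shown for 3 alpha genes that differed between cell types in several comparisons below, Psma5, Psma4 and Psma7, and for the catalytic Psmb5 and Psmb6. These are the 250 bases before the annotated start, 5′ to 3′, from the RefSeq window table of build GRCm38.p6. Capitals mark TGACNNNGC, the core of the antioxidant response element, and CCAAT, each searched on both strands.
Psma5 (chr3:108256676-108256925, plus strand): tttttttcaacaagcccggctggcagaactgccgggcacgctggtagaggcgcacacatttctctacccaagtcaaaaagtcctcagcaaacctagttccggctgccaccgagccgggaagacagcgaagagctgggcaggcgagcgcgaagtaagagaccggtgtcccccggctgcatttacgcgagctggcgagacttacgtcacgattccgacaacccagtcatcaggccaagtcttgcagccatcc
Psma4 (chr9:54950609-54950858, plus strand): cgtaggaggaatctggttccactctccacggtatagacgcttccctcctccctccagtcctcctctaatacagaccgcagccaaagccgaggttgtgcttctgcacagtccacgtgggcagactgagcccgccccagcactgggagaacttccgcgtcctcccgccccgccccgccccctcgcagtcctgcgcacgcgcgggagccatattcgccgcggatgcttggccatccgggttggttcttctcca
Psma7 (chr2:180042465-180042714, minus strand): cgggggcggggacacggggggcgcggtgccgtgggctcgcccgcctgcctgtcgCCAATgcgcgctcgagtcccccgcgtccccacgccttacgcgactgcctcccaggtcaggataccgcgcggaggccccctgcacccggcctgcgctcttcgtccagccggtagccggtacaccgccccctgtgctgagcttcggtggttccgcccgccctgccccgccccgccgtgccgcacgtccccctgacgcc
Psmb5 (chr14:54617996-54618245, minus strand): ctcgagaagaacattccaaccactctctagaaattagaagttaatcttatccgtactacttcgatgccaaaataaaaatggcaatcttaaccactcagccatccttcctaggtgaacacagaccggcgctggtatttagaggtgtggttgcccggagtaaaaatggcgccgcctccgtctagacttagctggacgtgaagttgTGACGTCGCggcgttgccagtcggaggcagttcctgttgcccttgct
Psmb6 (chr11:70525107-70525356, plus strand): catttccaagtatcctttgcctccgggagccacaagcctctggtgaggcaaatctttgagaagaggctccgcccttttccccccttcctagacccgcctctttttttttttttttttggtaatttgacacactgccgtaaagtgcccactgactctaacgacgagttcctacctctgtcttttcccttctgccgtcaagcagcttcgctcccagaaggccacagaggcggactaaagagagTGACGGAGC
Of the members, 30 had a window in that table, in 32 windows that also reach 50 bases past the start. TGACNNNGC was present in 5 of these windows (15.6%), those of Psmd9, Psmb6, Psmd12, Psmc6 and Psmb5, against 12.4% of all 32851 windows. CCAAT was present in 11 of 32 windows (34.4%), against 37.4% of all windows. The GC box GGCGGG was present in 22 of 32 windows (68.8%), against 35.3% of all windows. In 1 window, that of Psmd9, TGACNNNGC overlapped GGCGGG. These matches describe letters in the windows and no binding was measured.

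The table held 16751 cells, of which 16749 were kept, with 200 or more genes detected and a mitochondrial share of 20% or less (12200 cells of sick mice and 4549 of healthy mice). Counts per mouse were 1589079 to 4675909 in sick mice and 896930 to 1514252 in healthy mice. Healthy mice 2, 3 and 4 stood apart from the other 6 mice. Haemoglobin transcripts took 35.3% to 39.7% of their counts, against 17.6% in healthy mouse 1 and 10.2% to 27.9% in sick mice. Their median number of genes per cell was 273 to 290, against 402 in healthy mouse 1 and 357 to 391 in sick mice. Transcripts of neutrophils were also found in the other gates. S100a8, a neutrophil gene, reached 142500 CPM (counts scaled to a common total per library) in the neutrophil gate. It still reached 12370 CPM in monocytes or macrophages and 12980 CPM in early B cells. Cells were therefore assigned to 13 classes of 10 marker genes each, where a class's markers exceeded what free RNA would give, which placed 10306 cells and left 6443 without a class. In none of the gates did markers of another class outnumber its own among the 10 leading genes. The gates were made from these markers, so this is no independent check of them. Plasma cells, fibroblasts and skeletal muscle cells had 0 of their own and 0 of other classes there. Between mice, 8 of 16741 distinct barcodes were shared.

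In the whole joint, the sum of all cells of a mouse, sick against healthy mice was tested for 36 of the 37 members. None passed an adjusted p of 0.05 in edgeR's quasi-likelihood test, a test of counts across all genes with Benjamini-Hochberg adjustment, where 0.94% of 10323 genes passed. In that test 6 of 36 members had an unadjusted p under 0.05, against 1426 of 10323 genes. DESeq2 called 1 member, Psmb2. The log2 folds of the members had a median of 0.19, against -0.02 over all genes tested, and 30 of the 36 were positive. By role, 7 of 7 alpha genes and 8 of 8 beta genes had positive folds, with medians of 0.15 and 0.35. Of the base, 7 of 9 genes were positive with a median of 0.15, and of the lid 4 of 8, with a median of 0.00396. The 3 chaperones and the inhibitor had positive folds. In such sums, fewer cells of a type and less RNA per cell cannot be told apart.

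**Figure D1:**
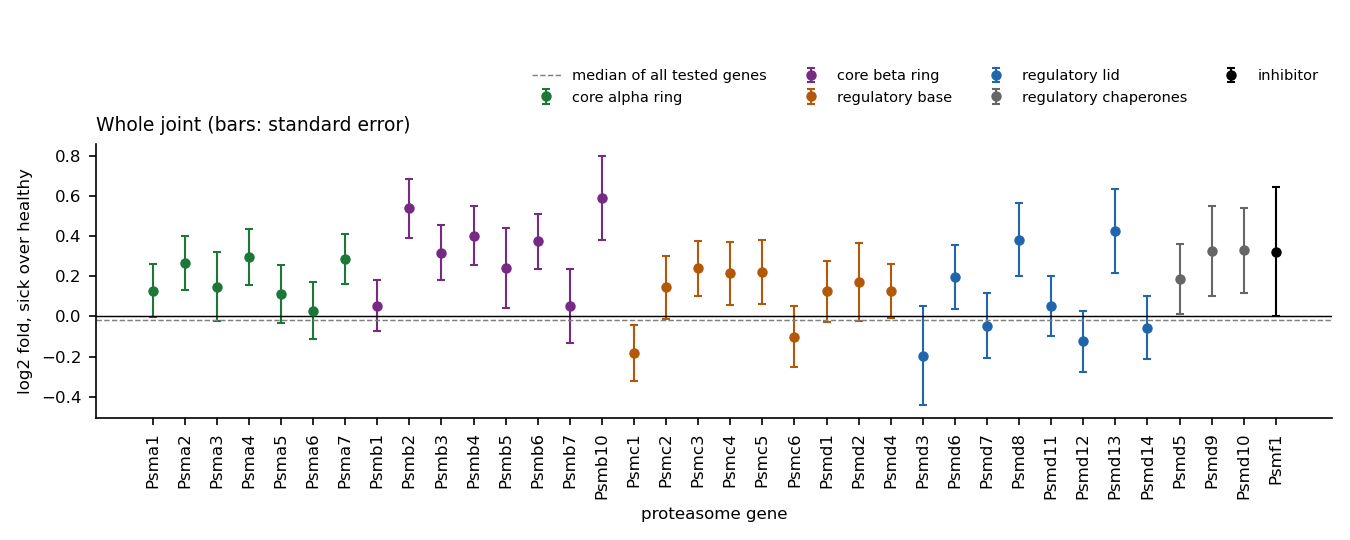
Log2 fold of each tested member in the whole joint, sick over healthy (points), with its standard error (bars), coloured by role, and the median of all tested genes as a dashed line at -0.02. The beta ring genes lie between 0.05 and 0.59, the lid genes on both sides of 0, and none passed the adjusted test.

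Per gene, the whole joint is given as CPM scaled by TMM (trimmed mean of M values, a scaling that assumes most genes do not change). Psmb2, a structural beta subunit, had 95.8, 98.6, 92.6, 118 and 108 CPM in sick mice 1, 3, 4, 5 and 6, against 68.0, 83.3, 71.4 and 61.2 CPM in healthy mice 1 to 4. The groups did not overlap, and the log2 fold was 0.54 ± 0.15 (SE; edgeR adjusted p = 0.110; DESeq2 adjusted p = 0.00934). Psmb6 had 97.8, 112, 119, 103 and 118 CPM in the sick mice, against 78.3, 96.2, 80.2 and 85.5 CPM in the healthy mice. Every sick mouse lay above every healthy mouse by a small margin, and the fold of 0.38 ± 0.14 did not pass (edgeR adjusted p = 0.236). Psma7, an alpha subunit, was measured with the most counts of all members. It averaged 337.5 ± 20.6 CPM in sick mice and 276.9 ± 12.5 CPM in healthy mice (SD, n = 5 and n = 4), with no overlap and an edgeR adjusted p of 0.315. The alpha gene Psma4, at 166.9 ± 23.3 CPM in sick mice and 136.1 ± 6.51 CPM in healthy mice, was the only other member whose groups did not overlap (edgeR adjusted p = 0.364). How many of all tested genes had groups without overlap was not counted here or in any gate, so the separations describe single genes only. Psmb10, the inducible partner of Psmb7, averaged 59.0 ± 15.3 CPM in sick mice and 39.3 ± 6.49 CPM in healthy mice. Its groups overlapped, since sick mouse 6 at 44.4 CPM lay below healthy mouse 4 at 44.7 CPM, and its fold of 0.59 ± 0.21 was the highest of the members (edgeR adjusted p = 0.220).

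The structural subunits Psmb4 and Psmb3 had folds of 0.40 ± 0.15 and 0.32 ± 0.14, with overlapping groups. Psmb5, the chymotrypsin-like site, averaged 36.3 ± 5.30 CPM in sick mice and 30.2 ± 7.36 CPM in healthy mice. Psmb7, the trypsin-like site, averaged 43.0 ± 8.92 CPM in sick mice and 41.9 ± 4.13 CPM in healthy mice. The sick mice had 29.3 to 43.1 CPM of Psmb5, against 41.1 CPM in healthy mouse 1 and 25.4 to 27.2 CPM in the other 3 healthy mice, and its fold was 0.24 ± 0.20, or 0.45 without healthy mouse 1. Neither gene passed the adjusted test. Psmb6 and Psmb5 have pseudogene copies in the table, with 351 counts for Psmb6-ps2, 171 for Psmb6-ps and 96 for Psmb5-ps over all mice, against 2135 for Psmb6 and 729 for Psmb5. How the counting divided reads between them is not given in the sources used here, so the values of both genes are uncertain to that extent. With healthy mouse 1 as the lone healthy mouse the spread came from the sick mice alone, so only folds are given: the members' median was 0.26, against 0.03 over all genes, and Psmb2 was at 0.61, Psmb6 at 0.50 and Psmb10 at 0.67. Neutrophil markers summed to 22893 to 38250 CPM in sick joints and 11001 to 31795 CPM in healthy joints, ranges that overlap. Their part in these folds was not tested.

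**Figure D2:**
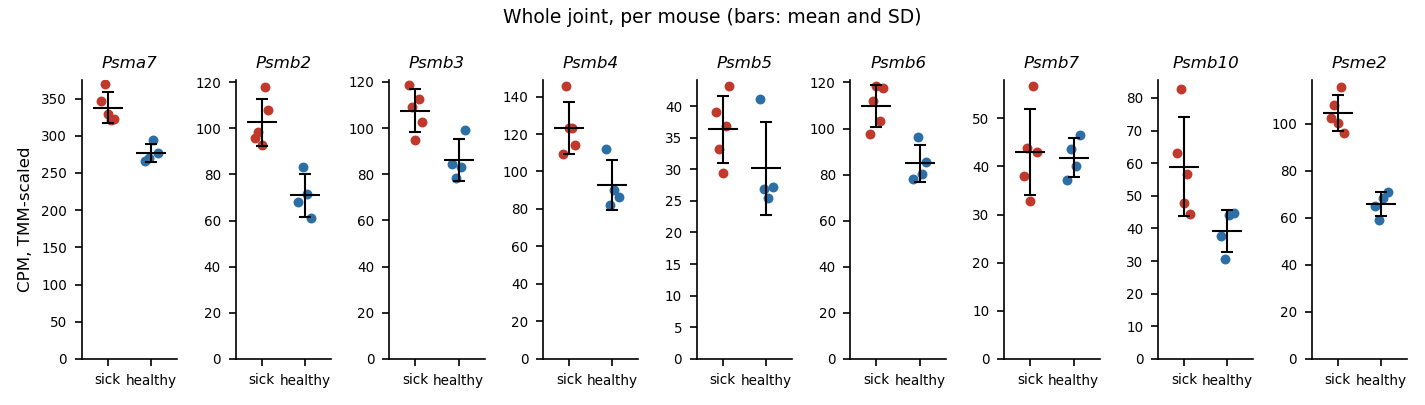
TMM-scaled CPM per mouse in the whole joint (points), with mean and SD (bars), for Psma7, the named beta genes and the activator gene Psme2; sick mice are on the left of each panel. Psma7, Psmb2, Psmb6 and Psme2 show groups that do not overlap, and Psmb7 shows means of 43.0 CPM in sick and 41.9 CPM in healthy mice.

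Summed over genes, the share of all transcripts taken by the core particle differed with what the total contained. In plain CPM, without TMM, the 16 core genes together took 2378, 2427, 2114, 1943 and 1857 CPM of the whole joint in sick mice 1, 3, 4, 5 and 6, against 1889, 1462, 1212 and 1342 CPM in healthy mice 1 to 4. The lowest sick mouse, at 1857 CPM, lay just under healthy mouse 1. The 9 base genes took 935 ± 123 CPM in sick mice and 704 ± 103 CPM in healthy mice, and the 8 lid genes 598 ± 60.5 CPM in sick mice and 463 ± 82.6 CPM in healthy mice. Once haemoglobin, mitochondrial and rRNA-like genes were left out of the total, the core took 2864 ± 168 CPM in sick joints and 2668 ± 164 CPM in healthy joints, with overlapping groups. On that scale the base had 1247 ± 69.1 CPM in sick joints and 1286 ± 154 CPM in healthy joints, so the order of the base and, with 800 ± 36.0 against 842 ± 96.1 CPM, of the lid was turned.

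Within neutrophils, the share taken by the core also differed with what the total contained. Their core genes took 1430, 1596, 1536, 1322 and 1420 CPM in the sick mice, against 1189, 1104, 1011 and 1106 CPM in the healthy mice, and no sick mouse fell within the healthy range. With haemoglobin, mitochondrial and rRNA-like genes out of the total, the core took 1803 ± 173 CPM in sick and 1957 ± 500 CPM in healthy neutrophils. Healthy mouse 4 was then the highest of the 9 mice at 2586 CPM and healthy mouse 1 the lowest at 1386 CPM. In granulocyte progenitors, the core took 4046 ± 364 CPM in sick mice and 3202 ± 393 CPM in healthy mice, and 4525 ± 314 against 4178 ± 502 CPM on the reduced total. In monocytes or macrophages the values were 3464 ± 515 CPM in sick and 2496 ± 570 CPM in healthy mice, and 4090 ± 404 against 3433 ± 429 CPM on the reduced total. Erythroid cells had 1656 ± 262 CPM in sick and 1252 ± 206 CPM in healthy mice, and 3066 ± 264 against 2569 ± 357 CPM on the reduced total. All of these are means ± SD over 5 sick and 4 healthy mice.

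**Figure D3:**
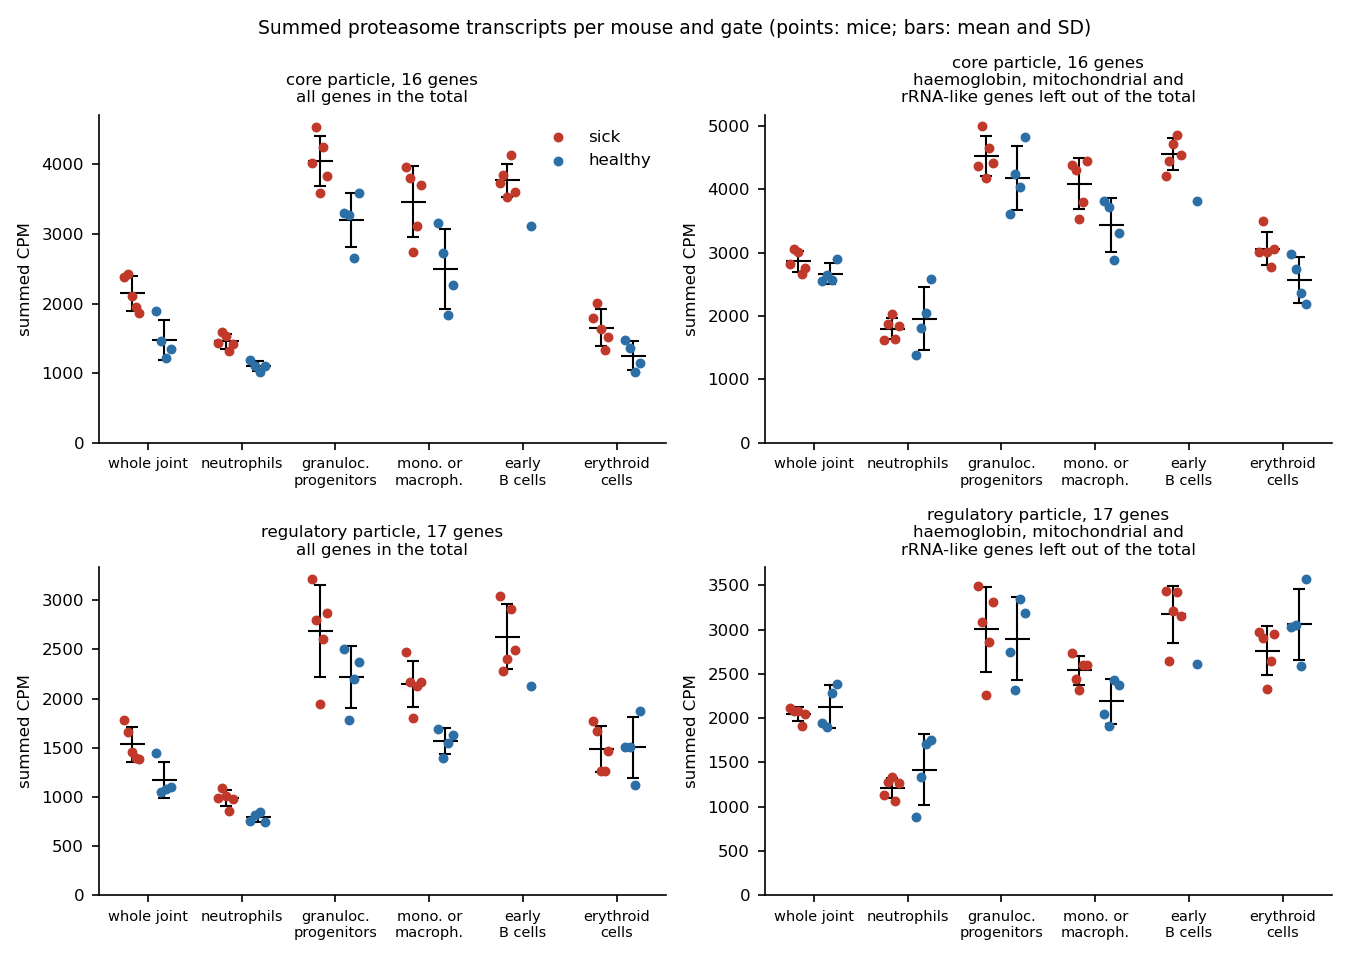
Summed CPM of the core particle (top) and of base and lid together (bottom) per mouse and gate, with all genes in the total (left) and without haemoglobin, mitochondrial and rRNA-like genes (right); points are mice, bars mean and SD. On the left the sick neutrophils all lie above the healthy ones (1322 to 1596 against 1011 to 1189 CPM for the core), and on the right the healthy mice span 1386 to 2586 CPM.

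Gate by gate, no member passed the test of sick against healthy mice. In neutrophils, edgeR called 0 of 33 members, where 0.951% of 4629 genes were called, and DESeq2 called 0 members. An unadjusted p under 0.05 was found for 2 members, against 729 of the 4629 genes. The members' median was 0.09, against -0.02 over all genes. Psmb4 had 98.3, 123, 94.1, 119 and 83.3 CPM in sick neutrophils, against 68.3, 38.5, 44.6 and 83.4 CPM in healthy ones, with a log2 fold of 0.79 ± 0.26 (edgeR adjusted p = 0.156). Psmd13, a lid subunit, averaged 41.7 ± 8.87 CPM in sick and 21.0 ± 9.90 CPM in healthy neutrophils (0.96 ± 0.35, edgeR adjusted p = 0.193). Without healthy mouse 1 both passed in edgeR, at adjusted p of 0.0286 and 0.0293, in a test that then called 1007 of 6011 genes, and the members' median became -0.05. Psmd4, a ubiquitin receptor of the base, averaged 87.9 ± 11.4 CPM in sick and 60.1 ± 17.2 CPM in healthy neutrophils, with no overlap (0.52 ± 0.25, edgeR adjusted p = 0.322). The scaffold subunit Psmd1 had the opposite sign (-0.51 ± 0.27). The other genes named here had folds of 0.41 ± 0.23 (Psma2), 0.36 ± 0.24 (Psmc3), 0.45 ± 0.39 (Psmb10), 0.29 ± 0.37 (Psmb5), 0.12 ± 0.24 (Psmb6) and -0.13 ± 0.33 (Psmb7). Neutrophil markers summed to 54728 to 76416 CPM in sick and 20771 to 85808 CPM in healthy neutrophils, and erythroid markers to 385 to 1020 CPM in sick and 470 to 2556 CPM in healthy ones. Their part in these folds was not tested.

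In monocytes or macrophages, 0 of 19 members were called by edgeR, where 0.242% of 1654 genes were called, and DESeq2 called 0 members. An unadjusted p under 0.05 was found for 3 members, against 181 of the 1654 genes. The 6 tested beta genes all had positive folds, with a median of 0.80, and the members' median was 0.28, against -0.00 over all genes. Psmb6 had 196, 253, 234, 182 and 290 CPM in sick mice, against 111, 160, 0 and 149 CPM in healthy mice, which did not overlap (1.16 ± 0.44, edgeR adjusted p = 0.339). Psmb10 averaged 199 ± 61.7 CPM in sick and 96.6 ± 50.9 CPM in healthy mice (1.12 ± 0.44, edgeR adjusted p = 0.345). Psmb2 averaged 275 ± 57.1 CPM in sick and 124 ± 79.5 CPM in healthy mice (0.95 ± 0.39). Psmb4, Psmc5 and Psmc1 had folds of 0.66 ± 0.39, 0.55 ± 0.43 and 0.40 ± 0.34. Healthy mouse 2 gave 21 cells and 28670 counts of this gate, and healthy mouse 4 gave 24 cells and 20285 counts. Mitochondrial transcripts took 3.93% to 8.93% of its counts in sick and 7.39% to 11.1% in healthy mice, and haemoglobin 2.86% to 12.4% in sick and 8.54% to 21.1% in healthy mice. Their part in these folds was not tested. Whether the sick fold differed between this gate and neutrophils was tested as an interaction. EdgeR called it for 0 of 31 members and 0.0289% of 3466 genes, and DESeq2 for 0 members. An unadjusted p under 0.05 was found for 204 of the 3466 genes and 1 member, Psmb2 (0.99 ± 0.46, edgeR adjusted p = 0.793). The interaction of Psmb6 was 0.99 ± 0.50, that of Psmb7 1.24 ± 0.76, that of Psmb10 0.54 ± 0.59, that of Psmc1 0.61 ± 0.41, that of Psmd2 0.91 ± 0.70 and that of Psmc3 -0.44 ± 0.37.

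In granulocyte progenitors, 0 of 18 members were called by edgeR, where 0.511% of 1174 genes were called, and DESeq2 called 0 members. An unadjusted p under 0.05 was found for 113 of the 1174 genes and 1 member. That member was Psmb2, with 292, 334, 94.6, 346 and 347 CPM in sick mice, against 45.9, 177, 143 and 104 CPM in healthy mice. Sick mouse 4 fell within the healthy range, and the fold was 1.43 ± 0.47 (edgeR adjusted p = 0.207). Psma7 averaged 1053 ± 152 CPM in sick and 786 ± 198 CPM in healthy progenitors (0.43 ± 0.22), and the lid scaffold gene Psmd12 212 ± 47.2 CPM in sick and 351 ± 81.9 CPM in healthy ones (-0.65 ± 0.32). Psmb6 was at -0.06 ± 0.36, Psmd14 at 0.39 ± 0.35, Psmb4 at 0.35 ± 0.33 and Psmc1 at -0.30 ± 0.28. The healthy mice gave 22 to 51 progenitor cells each, with 33726 to 64657 counts. In erythroid cells, 0 of 31 members were called by edgeR, where 0.867% of 2883 genes were called, and DESeq2 called 0 members. An unadjusted p under 0.05 was found for 4 members, against 282 of the 2883 genes. Psmd13 had 38.2, 61.9, 42.3, 57.5 and 52.5 CPM in sick erythroid cells, against 71.7, 148, 78.3 and 100 CPM in healthy ones. These groups did not overlap, with a fold of -0.84 ± 0.36 (edgeR adjusted p = 0.468), opposite in sign to that of neutrophils; the difference was not tested. The base scaffold subunit Psmd2 averaged 57.4 ± 12.99 CPM in sick and 93.4 ± 25.6 CPM in healthy erythroid cells, also without overlap (-0.62 ± 0.35). Healthy mice 2, 3 and 4 gave only 37, 34 and 44 erythroid cells, with 72123, 50884 and 63633 counts. The part of this depth in the folds was not tested. Psma1 was at -0.67 ± 0.26, the ATPase Psmc4 at 0.88 ± 0.46, Psma7 at 0.53 ± 0.25, Psmb2 at 0.92 ± 0.41 and Psmb6 at 0.38 ± 0.36. Against healthy mouse 1 alone, again without a test, the members' median was 0.37 in neutrophils, 0.32 in monocytes or macrophages, 0.12 in granulocyte progenitors and 0.12 in erythroid cells, against 0.07, 0.06, 0.07 and 0.05 over all genes.

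Between some gates the summed core differed by more than its spread over mice. The summed core took 3671 ± 567.5 CPM in granulocyte progenitors (9 mice), 3658 ± 340 CPM in early B cells (6 mice), 3034 ± 717.5 CPM in monocytes or macrophages (9 mice), 2981 ± 787 CPM in plasmacytoid dendritic cells (3 mice), 1476 ± 309 CPM in erythroid cells (9 mice) and 1301 ± 208 CPM in neutrophils (9 mice). Neighbours in this order overlapped, except that plasmacytoid dendritic cells, from 2126 CPM, lay above erythroid cells, up to 2009 CPM. In the same way every progenitor value, from 2654 CPM, lay above every neutrophil value, up to 1596 CPM. Per mouse, the core was 2.34 to 3.25 times higher in granulocyte progenitors than in neutrophils (9 of 9 mice). The ratio was 1.86 to 2.85 with haemoglobin, mitochondrial and rRNA-like genes out of the total. For monocytes or macrophages over neutrophils the plain ratio was 1.79 to 2.77 (9 of 9 mice), and 1.28 to 2.75 on the reduced total. For early B cells it was 2.30 to 3.13 (6 of 6 mice), and 2.32 to 2.97 on the reduced total. With library totals the median over all tested genes was also higher in each of these gates than in neutrophils, as given below. The ratios are to be read against that median, and the reduced total still held neutrophil genes such as S100a8.

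Granulocyte progenitors, the precursors of neutrophils, gated by markers such as Elane and Mpo, were compared with neutrophils within each mouse. Of 29 members tested, 16 were higher in progenitors (30.5% of 3047 genes were called higher) and 0 were lower (36.9% of genes were called lower). In edgeR 18 of 29 members had an unadjusted p under 0.05, all with positive folds, against 2131 of 3047 genes in either direction. DESeq2 called 14 members higher and 0 lower. By role the 16 edgeR calls were 5 of 7 alpha genes, 3 of 7 beta genes, 6 of 9 base genes and 2 of 6 lid genes. The members' median fold was 0.50, against -0.11 over all genes tested, and all 29 folds were positive. Without the filter on low counts the members' median was 0.09 and that of all genes -0.51. With library totals in place of TMM the medians were 1.64 and 1.02, so that 29 of 29 members and most genes were called higher. Members are therefore read against the median of all genes. In sick mice alone 19 members were called, 18 of them higher. The share of all genes called in that run is not given here, so this count is not compared with the 16.

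Psmd7, a lid subunit that partners Psmd14, had 246, 224, 91.2, 198 and 194 CPM in progenitors of sick mice, against 50.3, 93.8, 92.9, 56.3 and 84.8 CPM in their neutrophils. In healthy mice it had 188, 160, 238 and 375 CPM in progenitors, against 37.9, 67.5, 60.3 and 99.9 CPM in neutrophils. It was higher in 8 of 9 mice, all but sick mouse 4, with a log2 fold of 1.55 ± 0.21 (edgeR adjusted p = 1.52e-08). Psma5 averaged 175.5 ± 43.3 CPM in progenitors and 71.3 ± 16.4 CPM in neutrophils and was higher in 9 of 9 mice (1.26 ± 0.20, edgeR adjusted p = 5e-07). Psma4 averaged 338 ± 60.1 CPM in progenitors and 152 ± 48.0 CPM in neutrophils (1.19 ± 0.17, edgeR adjusted p = 5.97e-08), and healthy mouse 4 was the exception among 9. These 3 genes passed under each alternative run for them. The promoter windows of Psma4 and Psma5 shown above hold neither marked motif.

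The alpha gene Psma3 rose by 0.91 ± 0.24 and the alpha gene Psma7 by 0.69 ± 0.15, each in 8 of 9 mice. Psmb10 averaged 93.3 ± 63.1 CPM in progenitors and 48.3 ± 21.0 CPM in neutrophils (0.87 ± 0.26, edgeR adjusted p = 0.00276), with 0 CPM in progenitors of healthy mouse 2. The ATPases Psmc5, Psmc3 and Psmc1 had folds of 0.79 ± 0.19, 0.52 ± 0.17 and 0.50 ± 0.17. Psmc1 was lost without healthy mouse 3 (edgeR adjusted p = 0.0693). Psmd12, Psma6 and Psmb1 rose by 0.66 ± 0.20, 0.59 ± 0.17 and 0.57 ± 0.16. The catalytic Psmb6, at 141 ± 49.6 CPM in progenitors and 125 ± 24.8 CPM in neutrophils, and Psmb7, at 62.7 ± 31.8 CPM in progenitors and 52.2 ± 16.8 CPM in neutrophils, did not pass. Leaving out 1 mouse gave 12 to 18 called members. S100a8 stood at 17010 CPM in the progenitor gate, against 12980 CPM in early B cells. How much of it was free neutrophil RNA was not tested, nor was the part of such RNA in these folds.

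**Figure D4:**
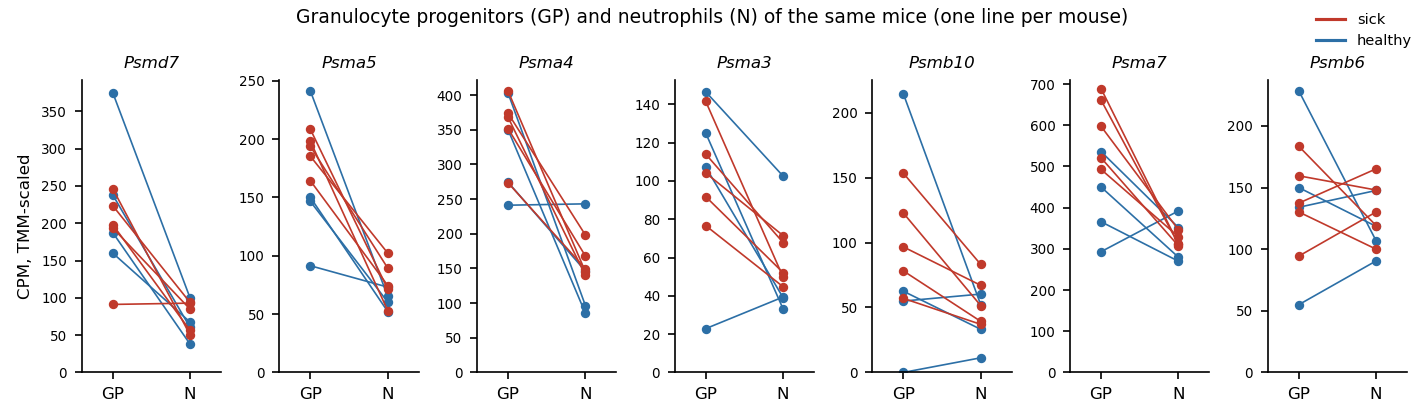
TMM-scaled CPM of 7 members in granulocyte progenitors (GP, left of each panel) and neutrophils (N) of the same mice; each line is 1 mouse, red sick and blue healthy. Psma5 falls towards neutrophils in 9 of 9 lines, Psmd7 and Psma4 in 8 of 9, and the lines of Psmb6 cross.

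Monocytes or macrophages, against neutrophils of the same mice, had 8 of 31 members higher (23% of 3466 genes) and 1 lower (27.5% of genes). The share called higher, 25.8%, was close to that of all genes. DESeq2 called 6 members higher, Psma4, Psma5, Psma7, Psmb1, Psmb10 and Psmd7, and 1 lower, Psmd10. The members' median was 0.27, against -0.05 over all genes, and became -0.02 against -0.37 without the filter on low counts, where 3 of 5 called members were higher, and 1.25 against 0.92 with library totals, where 30 of 30 called members were higher. Gates by most markers gave 1 or 2 calls. Psma7 had 683, 641, 492.8, 621 and 665 CPM in this gate in sick mice, against 308, 319, 287, 289 and 289 CPM in their neutrophils. In healthy mice it had 523, 876, 537 and 504 CPM in this gate, against 258, 256, 373 and 333 CPM in neutrophils. The gates did not overlap, and the fold of 1.04 ± 0.14 (edgeR adjusted p = 3.77e-09) passed under each of the 23 settings run. Psmb10 rose by 1.16 ± 0.22 (8 of 9 mice) and Psma4 by 0.83 ± 0.18 (8 of 9 mice). Psmd7 rose by 0.79 ± 0.22 in 7 of 9 mice, a fold that turned to -0.12 and -0.06 where cells were gated by most markers. Psma5, Psma3, Psmb1 and Psmc3 rose by 0.70 ± 0.21, 0.60 ± 0.24, 0.44 ± 0.15 and 0.44 ± 0.17.

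Psmd10, the chaperone also known as gankyrin, was the 1 member called lower in monocytes or macrophages. It averaged 28.5 ± 17.3 CPM there and 45.0 ± 24.8 CPM in neutrophils, lower in 7 of 9 mice (-0.71 ± 0.29, edgeR adjusted p = 0.0376), and its fold turned to 0.27 with library totals. It was lost without healthy mouse 1 or sick mouse 1 (up to 0.102). Psma3 was lost without any 1 of healthy mice 1 and 4 and sick mice 1, 3, 5 and 6 (up to 0.0829). Psmc3 was lost without healthy mouse 2, 3 or 4 or sick mouse 6 (up to 0.0640), and Psmb1 without sick mouse 1 (0.0965). Psmb6, at -0.00 ± 0.20 with TMM and 0.97 with library totals, and Psmb7, at 0.12 ± 0.28, did not pass. The fold of Psmd10 was also positive, at 0.57, in the gate with a lead of 2 markers.

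Early B cells were gated in 6 mice, 5 sick and healthy mouse 1. Against neutrophils of these mice, 10 of 27 members were higher (31% of 2687 genes) and 0 lower (35.1% of genes) by edgeR. An unadjusted p under 0.05 was found for 13 members, against 1843 of the 2687 genes in either direction. Of these members 1 had a negative fold, Psmc2. DESeq2 called 5 members higher, Psma4, Psma5, Psma7, Psmc5 and Psmd7, and 1 lower, Psmc2. The median of 0.40, against -0.08 over all genes, turned to -0.30 against -0.82 without the filter on low counts, where 6 members were called and 0 of them were higher, and was 1.55 against 1.07 with library totals. Psma5 had 265, 124, 251, 221 and 163 CPM in early B cells of sick mice, against 81.2, 110, 77.1, 57.3 and 97.4 CPM in their neutrophils, and in healthy mouse 1 it had 310 CPM in early B cells against 56.2 CPM in neutrophils. Higher in 6 of 6 mice without overlap, it had a fold of 1.34 ± 0.28 (edgeR adjusted p = 4.03e-05). Psmd7 rose by 1.29 ± 0.28, Psmc5 by 0.99 ± 0.29, Psma4 by 0.90 ± 0.21, Psmb10 by 0.84 ± 0.32, Psma6 by 0.76 ± 0.23 and Psma7 by 0.76 ± 0.16. Psmc1, Psmb1 and Psmb6 rose by 0.71 ± 0.22, 0.52 ± 0.17 and 0.51 ± 0.23. Where cells were gated by most markers, with any number or at least 3, edgeR called 1 of 33 and 0 of 36 members (3 and 5 at an unadjusted p under 0.05). In these gates Psmd7 was at -0.14 and -0.10 and Psma7 at -0.18 and -0.30. Psmb1 and Psmb6 were at -0.18 and -0.17 without the filter on low counts, and at -0.17 and -0.11 with at least 3 most markers. Psmb10 (0.459), Psmb1 (0.133) and Psmc1 (0.110) were lost without sick mouse 6, and Psmb6 without any of healthy mouse 1 and sick mice 1, 3, 4 and 6 (up to 0.495).

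Plasmacytoid dendritic cells, gated in sick mice 3, 5 and 6 with 25 to 33 cells each, had 0 of 34 members called higher than in neutrophils (3.32% of 5209 genes) and 0 lower (11.2% of genes) by edgeR, 1 unadjusted in each direction. DESeq2 called 0 members. Against 1348 of the 5209 genes, 2 members in all had an unadjusted p under 0.05. These were Psmd1, at 133 ± 106 CPM in plasmacytoid dendritic cells and 47.9 ± 7.14 CPM in neutrophils, and Psmb4, at 75.3 ± 67.9 CPM in plasmacytoid dendritic cells and 179 ± 37.4 CPM in neutrophils. The members' median was -0.14, against -0.48 over all genes, and turned to 1.12 against 0.77 with library totals, where 6 were called. Psma2 was at -0.76 ± 0.42, the lid subunit Psmd11 at -1.77 ± 1.12 and the chaperone Psmd5 at -2.21 ± 1.41. Psmd12 was at -1.17 ± 0.85, and of the catalytic and inducible genes Psmb10 was at 0.88 ± 0.73, Psmb5 at 0.12 ± 0.94, Psmb6 at -0.07 ± 0.50 and Psmb7 at 0.02 ± 0.85. At this depth a fold of the size seen in early B cells could not be told from 0 for many members.

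**Figure D5:**
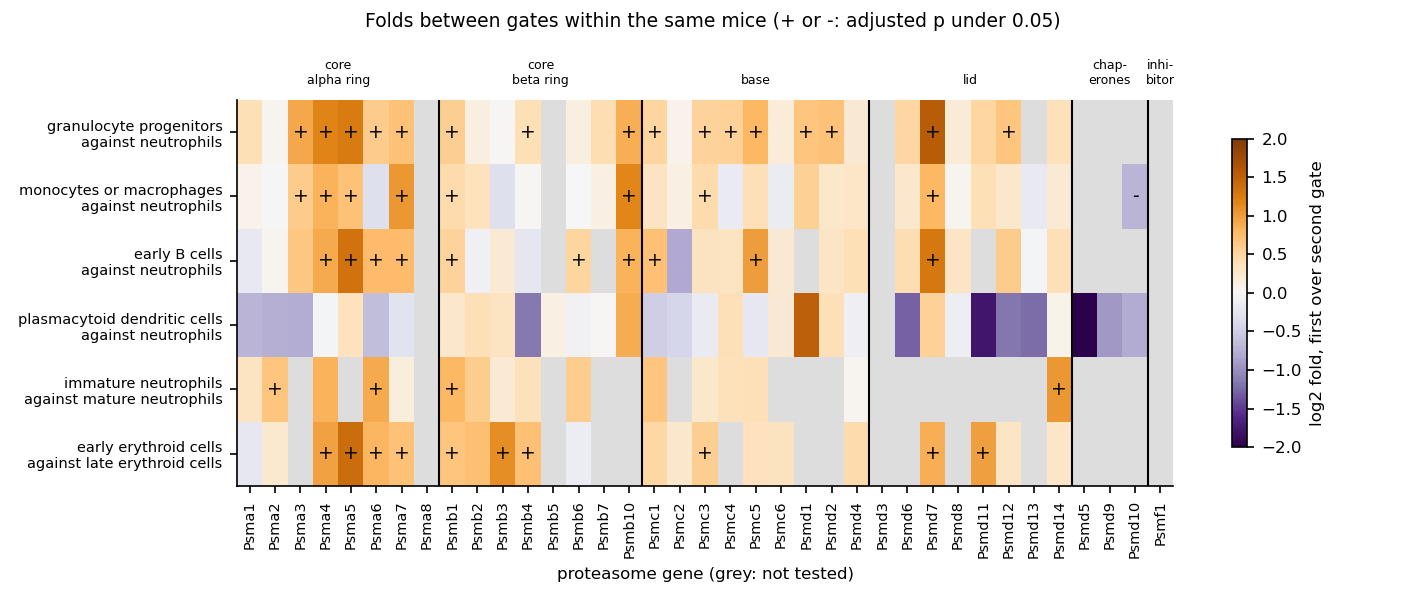
Log2 folds between gates of the same mice for each member (columns, by role) and comparison (rows), the first gate over the second; + and - mark an adjusted p under 0.05 and grey a gene not tested. Psma4, Psma5, Psma7, Psmb1, Psmb10 and Psmd7 are called higher in granulocyte progenitors, monocytes or macrophages and early B cells by edgeR with TMM. DESeq2 did not call Psmb1 and Psmb10 in early B cells. Psma7, Psmb1 and Psmd7 change sign in some settings in the B cell or monocyte row, and nothing is called in the plasmacytoid row.

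Immature neutrophils, gated by secondary granule genes such as Camp and Ngp, were compared with mature ones, gated by genes such as Il1b and Cxcr2, in 6 mice. Of 16 members tested, 4 were higher in immature cells (16% of 1796 genes) and 0 lower (18.8% of genes) by edgeR. An unadjusted p under 0.05 was found for 5 members, all with positive folds, against 796 of the 1796 genes in either direction. DESeq2 called 4 members higher. The folds had a median of 0.48, against 0.08 over all genes. The 16 folds were all positive. Psmd14, the lid deubiquitinase, averaged 107 ± 21.1 CPM in immature and 44.9 ± 26.0 CPM in mature cells, without overlap (1.04 ± 0.42, edgeR adjusted p = 0.0425). Psma6 rose by 0.90 ± 0.36, Psmb1 by 0.79 ± 0.25 and Psma2 by 0.67 ± 0.25 in immature cells, and Psmb6 was at 0.58 ± 0.37. Leaving out 1 mouse gave 1 to 3 calls, and the gates by most markers, with any number or at least 3, gave 0 of 33 by edgeR (3 and 6 at an unadjusted p under 0.05). Psmd14 was lost without any of healthy mouse 1 and sick mice 1, 4, 5 and 6 (up to 0.150), Psma6 without healthy mouse 1 or sick mouse 1, 3 or 6 (up to 0.151) and Psma2 without healthy mouse 1 or sick mouse 1, 5 or 6 (up to 0.124). In sick mice alone 1 member was called.

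In the erythroid lineage, early cells were compared with late cells in 6 mice. Of 21 members, 10 were higher in early cells (36.4% of 1340 genes) and 0 lower (35.1% of genes) by edgeR. An unadjusted p under 0.05 was found for 11 members, all with positive folds, against 981 of the 1340 genes in either direction. DESeq2 called 11 members higher. The median was 0.57, against 0.06 over all genes, and 2.03 against 1.53 with library totals, where 21 of 21 were higher. In cells of at least 400 genes edgeR called 0 of 23 members (3 at an unadjusted p under 0.05), with a median of 0.40 against 0.05 over all genes. The 3 gates by most markers gave 2 of 10, 1 of 11 and 1 of 4. The summed core was 2.26 to 5.30 times higher in early cells in plain CPM, and 1.35 to 2.08 times with haemoglobin, mitochondrial and rRNA-like genes out of the total. Psmb3, a structural beta subunit, had 244, 191, 136, 133 and 146 CPM in early cells of sick mice, against 108, 84.2, 53.4, 79.7 and 80.1 CPM in their late cells, and in healthy mouse 1 it had 214 CPM in early and 68.2 CPM in late cells. It was higher in 6 of 6 mice without overlap (1.10 ± 0.31, edgeR adjusted p = 0.00142). Psma5 had the highest fold at 1.39 ± 0.41 (5 of 6 mice), followed by Psmd11, a lid scaffold subunit, at 0.97 ± 0.38, and Psma4 at 0.97 ± 0.29. Psmd7, Psma6, Psmb4, Psma7, Psmb1 and Psmc3 rose by 0.87 ± 0.30, 0.80 ± 0.30, 0.70 ± 0.29, 0.69 ± 0.21, 0.66 ± 0.20 and 0.57 ± 0.23. Psmb6 was at -0.13 ± 0.30 with TMM and 1.30 with library totals. Psmb4, at -0.03 where cells were gated by most markers, was lost without sick mouse 1 (0.0908), Psmd7 without sick mouse 3 (0.0955), Psma6 without sick mouse 4 or 6 (up to 0.111), Psmd11 without sick mouse 4 or 5 (up to 0.101) and Psmc3 without sick mouse 3, 4 or 5 (up to 0.0803).

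The inhibitor Psmf1 and the chaperones Psmd5 and Psmd9 were higher in erythroid cells than in neutrophils, described here without a test. Their values are CPM with haemoglobin, mitochondrial and rRNA-like genes left out of the total. These 3 genes were chosen after their values were seen. The chaperone Psmd10 is not part of this description and is given above for monocytes or macrophages only. Psmf1, known as PI31, which inhibits the core in vitro, had 91.7 ± 32.9 CPM in erythroid cells, against 19.6 ± 16.6 CPM in neutrophils, 16.7 ± 18.9 CPM in granulocyte progenitors and 14.1 ± 16.3 CPM in monocytes or macrophages (SD, n = 9 each). Psmd5, a chaperone that binds Psmc2, had 137 ± 55.0 CPM in erythroid cells and 37.2 ± 7.17 CPM in neutrophils. Psmd9, another base chaperone, had 86.9 ± 30.3 CPM in erythroid cells and 24.9 ± 8.49 CPM in neutrophils. Psma8, the alternative alpha subunit of germ cells, had 92 counts in all 9 mice together, and was not tested in most comparisons.

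Of the wider pathway, 34 listed genes for activators, immune subunits, assembly factors, transcription factors and ubiquitin were tested in the whole joint. In edgeR, where 0.94% of 10323 genes were called, 1 was higher in sick mice and 0 lower. This was Psme2, a subunit of the interferon-inducible activator, with 102, 108, 100, 116 and 96.2 CPM in sick mice, against 65.1, 59.0, 68.4 and 70.9 CPM in healthy mice. The groups did not overlap and the fold was 0.66 ± 0.14 (edgeR adjusted p = 0.0279), lost without any of healthy mice 2, 3 and 4 and sick mice 3 and 5 (up to 0.110). In edgeR 7 of the 34 with a positive and 2 with a negative fold had an unadjusted p under 0.05, against 1426 of 10323 genes. In the whole joint DESeq2 called 5 pathway genes higher: Psme2, Psmb8, Psmb9, Sem1 and Ubb. The share of all genes that DESeq2 called is not given here, so this count has no background. By edgeR the immune subunit Psmb8, the partner that replaces Psmb5, averaged 196.5 ± 39.6 CPM in sick joints and 117.4 ± 17.2 CPM in healthy joints (0.74 ± 0.17, edgeR adjusted p = 0.0600), with no overlap. Psmb9, which replaces Psmb6, averaged 54.5 ± 6.37 CPM in sick joints and 32.5 ± 6.20 CPM in healthy joints, also with no overlap (0.73 ± 0.18, edgeR adjusted p = 0.0747). In neutrophils edgeR called 0 of 25 pathway genes, and DESeq2 called 1, Psmb8. An unadjusted p under 0.05 was found for 8 of the 25, against 729 of 4629 genes. In granulocyte progenitors, monocytes or macrophages and erythroid cells edgeR and DESeq2 both called 0, with 3 of 11, 2 of 12 and 3 of 20 at an unadjusted p under 0.05. Over all genes these counts were 113 of 1174, 181 of 1654 and 282 of 2883.

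Between granulocyte progenitors and neutrophils, 6 of 20 pathway genes were higher and 6 lower (30.5% and 36.9% of all genes, so neither count exceeded the background). Among those higher were Psmb8 (1.09 ± 0.16), the ubiquitin fusion gene Rps27a (1.10 ± 0.19), the segregase Vcp (0.81 ± 0.20) and the proteasome-bound deubiquitinase Uchl5 (0.80 ± 0.22). Among those lower were Nfe2l2 (-0.97 ± 0.22), the lid protein gene Sem1 (-0.57 ± 0.15) and the polyubiquitin gene Ubb (-0.57 ± 0.14), each turned to a positive fold with library totals (0.15, 0.57 and 0.56). In monocytes or macrophages 6 of 20 were higher and 2 lower (23% and 27.5% of all genes), with Psmb8 at 1.18 ± 0.16, Psme2 at 0.74 ± 0.18, Psme1 at 0.63 ± 0.19 and the core assembly factor Pomp at 0.56 ± 0.16. Also called were the shuttle gene Rad23b (0.70 ± 0.25), lost without sick mouse 1 (0.0784), and the transcription factor gene Nfe2l1 (0.58 ± 0.25), lost without healthy mouse 3 or sick mouse 1, 3, 4 or 6 (up to 0.266). Psme1 turned to -0.09 in the gate with a lead of 2 markers. Sem1 stood at -0.77 ± 0.14 there and turned to 0.20 with library totals. In early B cells 3 of 16 were higher and 5 lower (31% and 35.1% of all genes, both above the pathway's shares), with Sem1 at -1.58 ± 0.16, Nfe2l2 at -1.31 ± 0.30 and Psmb9 at 0.81 ± 0.29, the last lost without sick mouse 3 or 6 (up to 0.131). Zfand5, which encodes a proteasome-binding zinc finger protein, stood at -1.28 ± 0.26. The polyubiquitin gene Ubb (-0.47 ± 0.14) turned to 0.68 with library totals. Psmb8 (0.81 ± 0.19) turned to -0.12 and -0.50 there where cells were gated by most markers. In plasmacytoid dendritic cells edgeR and DESeq2 called 0 of 28 higher and 1 lower, Sem1 at -2.28 ± 0.27. Of the 28, 2 with a positive and 3 with a negative fold had an unadjusted p under 0.05. Over all genes, 1348 of 5209 had one in either direction. Immature against mature neutrophils gave 0 higher and 0 lower of 15 by edgeR, and DESeq2 called 1, Sem1. An unadjusted p under 0.05 was found for 3 of the 15, against 796 of 1796 genes. Early against late erythroid cells gave 3 higher and 5 lower of 10 (36.4% and 35.1% of all genes), among them Rps27a at 1.88 ± 0.40, the nuclear activator gene Psme3 at -1.53 ± 0.31 and Ubb at -1.23 ± 0.16, which turned to 0.23 with library totals. Zfand5 (-1.13 ± 0.27) likewise turned to 0.31. Pomp (0.53 ± 0.24) was lost without any 1 of the 6 mice (up to 0.142).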

How the data were processed

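Single-cell RNA of whole knee joints was measured in 5 sick and 4 healthy mice, 1 library each. The authors deposited a table of raw counts per gene and cell, with whole, not normalized values. Per the submitters' processing notes and protocols, bcl2fastq, Picard, STAR and the Drop-seq core computational protocol 1.0.1 were used, and sequencing rounds of a sample were merged. The labels name GRCm38 and mm9 in one place and the human GRCh38 in another, so genes are used by symbol. Whether the counts are of unique molecules is not given in the sources used here.

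Cells with 200 or more genes and a mitochondrial share of 20% or less were kept. No doublet caller was run. A gate by the most markers, as designed, put most cells into neutrophils. The gate used instead, chosen after that was seen, took the same lists of 10 markers and kept a cell in a class with at least 2 different markers and a Poisson tail under 0.001 against the free RNA of its mouse. The 2173 cells past it for several classes were left out, and the designed gates are given as alternatives. Deposited counts were summed per mouse and gate (at least 20 cells). Sick against healthy mice in plasmacytoid dendritic cells and early B cells had fewer than 3 mice in a group and was not tested.

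Sums were tested with edgeR 4.0.16 (filterByExpr, TMM, quasi-likelihood) and, as an alternative, DESeq2 1.42.0, in R 4.3.3, with Benjamini-Hochberg adjustment over all tested genes at 0.05. Gates were compared with mouse as a block. Shares over all genes are those of edgeR, and none is given for DESeq2. Values per gene are CPM on the TMM scale of their comparison, and therefore differ between comparisons. Summed levels are plain CPM, or CPM on the reduced total where stated. The untested values of Psmf1, Psmd5 and Psmd9 are also on the reduced total. Standard errors were taken from the fold and the F statistic. The steps were tested on simulated data. The genes named in each comparison were the catalytic genes and Psmb10, the called members (at most the 12 with the smallest p, or the 6 smallest where fewer than 4 were called) and at most 8 called pathway genes, some of which are not reported here; a few others, chosen after their values were seen, complete a description. The members and lists were chosen with earlier results of these data known.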

Additional observations from a re-analysis of the deposited data

Results flagged for a closer look

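Of 66 groups of 4 or 5 mice examined, 3 held a mouse far from the others, and chance alone gives about 1 in 20. Healthy mouse 1 stood above the other healthy mice in the whole joint in the summed base genes, at 857.2 CPM, and in Psmb5, at 41.15 CPM on the TMM scale. Sick mouse 5 stood apart from the other sick mice in the summed lid genes of late erythroid cells, at 207.4 CPM.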

How the results depend on the processing

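No member was called between sick and healthy mice in the whole joint or the 4 gates by edgeR, except 2 in neutrophils without healthy mouse 1 (0 to 2 over the mice left out), and 1 by DESeq2 in the whole joint. With the replicate number as a block these counts stayed at 0, and the pathway gene Psme2, called in the whole joint, had an adjusted p of 0.251 (log2 fold 0.60). The labels tie the numbers to no shared source and correlations of same-numbered mice were 0.18, -0.06 and 0.08, so the numbers were not used to pair mice.

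Between gates, the counts of called members moved as follows, given without the shares of all genes called under each setting. Granulocyte progenitors (16) had 29 with library totals, 5 without the filter on low counts, 10 in cells of at least 400 genes and 4 when thinned (12 to 18 with 1 mouse left out). Monocytes or macrophages (9) had 30, 5, 3 and 4 under the same settings, 2, 2 and 1 when gated by most markers, by at least 3 and with a lead of 2 (6 to 11). Early B cells (10) had 26, 6, 6 and 3, then 1 and 0 by most markers and at least 3, and 6 by DESeq2, of which 1 was lower (6 to 12). Plasmacytoid dendritic cells (0) had 6 with library totals. Immature neutrophils (4) had 10 without the filter, 1 when thinned, 0 and 0 by most markers and at least 3, 1 with a lead of 2, 2 with at least 3 markers and 1 in sick mice only (1 to 3). Early erythroid cells (10) had 21 with library totals, 0 in cells of at least 400 genes, 2, 1 and 1 by the 3 gates of most markers, and 6 at a Poisson tail of 0.0001 (5 to 10).

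Folds changed sign with library totals for Nfe2l2 (0.15), Sem1 (0.57) and Ubb (0.56) in progenitors, Psmb6 (0.97), Psmd10 (0.27) and Sem1 (0.20) in monocytes or macrophages, Ubb (0.68) in early B cells, and Psmb6 (1.30), Ubb (0.23) and Zfand5 (0.31) in early erythroid cells. By most markers and at least 3 they changed for Psmd7 (-0.12 and -0.065) in monocytes or macrophages, for Psma7 (-0.18 and -0.30), Psmb8 (-0.12 and -0.50) and Psmd7 (-0.14 and -0.10) in early B cells, and for Psmb4 (-0.030 and -0.034) in early erythroid cells. With a lead of 2 they changed for Psmd10 (0.57) and Psme1 (-0.091) in monocytes or macrophages. Without the filter, and by at least 3, they changed in early B cells for Psmb1 (-0.18 and -0.17) and Psmb6 (-0.17 and -0.11). The cause was not tested. Depth is limited in the small gates, where the smallest sum held 17856 counts.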
